A study of Mus musculus with 4 samples.

Results

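The genes described here encode the mitochondrial respiratory chain, the nuclear-encoded subunits of complexes I to V and the factors that assemble them. They were chosen by name: symbols that start with Nduf, Uqcr or Atp5, with Sdh and then a, b, c or d, or with Cox and then a digit. Of the 102 such genes with a probe set carrying that symbol alone, 96 exceeded the floor on 1 or more arrays. These 96 are the genes described. In the whole series 9865 of 18193 genes did so. They were 33 genes of complex I, 4 of complex II, 8 of complex III, 13 of complex IV, 17 of complex V and 21 assembly factors, so that 75 of the 96 encode subunits. The floor, log2 6.80 or a signal of 111, is the 60th percentile of all values over the 4 arrays.

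Complex I takes electrons from NADH and complex II takes them from succinate, ubiquinone carries them to complex III, and cytochrome c carries them on to complex IV, which reduces oxygen. Complexes I, III and IV pump protons across the inner membrane, and complex V, the ATP synthase, makes ATP as the protons return. Neutrophils make most of their ATP by glycolysis and hold few mitochondria when mature, while their precursors in the bone marrow respire more. Subunits encoded in the mitochondrial genome are not covered by the name rule.

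RNA of bone marrow neutrophils, enriched with magnetic beads, was hybridised to 4 Affymetrix arrays, 1 for each combination of genotype and LPS. The knockout cells came from miR-125a-/- mice and the wild-type cells from miR-125a+/+ mice, all C57BL/6 and 8 weeks old. miR-125a is a microRNA, and LPS is the bacterial lipopolysaccharide that cells sense through Toll-like receptor 4. In the order used below, the groups were knockout cells given LPS for 3 h, unstimulated knockout cells, wild-type cells given LPS for 3 h and unstimulated wild-type cells. Unstimulated cells carry the time 0 h in the titles, and the labels leave it unclear whether these cells also spent 3 h in medium. Each array held RNA pooled from 3 experiments, so there was 1 array per group, no spread between animals or experiments could be computed, and no difference below has a test. A gene is called higher or lower where its log2 difference reached 1, which is 2-fold, and every such call describes these 4 pools.

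The arrays were alike in overall quality. Between 37.8% and 41.5% of the 45101 probe sets were above the floor, and the 3′ and 5′ control probe sets of Gapdh differed by -0.12 to 0.01 and those of b-Actin by 0.16 to 0.23 in log2 signal. All 12 neutrophil markers found were above the floor, led by S100a8 (16.20 and 15.84 in knockout cells with LPS and unstimulated, 15.84 and 15.67 in wild-type cells) and S100a9 (15.90 and 15.58 in knockout cells, 15.52 and 15.42 in wild-type cells). Of 7 B cell markers 3 exceeded the floor on 1 or more arrays, and Cd79a, Ebf1, Ms4a1 and Pax5 were below it on all 4. Of 6 T and NK cell markers 1, Cd3d, was above it (9.35 and 9.64 in knockout cells with LPS and unstimulated, 9.66 and 9.92 in wild-type cells), and Cd3e, Cd3g, Cd4, Cd8a and Ncr1 were not. The annotation used here assigns no probe set to the microRNA itself, so the deletion could not be checked.

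Expression of the respiratory chain was broad. Of the 96 genes, 92 were above the floor on all 4 arrays, and the 4 others, Cox6a2, Cox7c, Ndufaf6 and Sdhaf3, dropped below it on at least 1 array. The 6 genes below the floor everywhere were Cox4i2, Cox7a1, Cox7b2 and Cox8b, which are isoforms typical of lung, muscle or testis, together with Ndufa4l2 and Ndufb4. Ndufb4 also has 2 probe sets that carry the symbols of 2 close copies, Ndufb4b and Ndufb4c, as well, and the brighter of those gave 12.41 and 12.52 in knockout cells with LPS and unstimulated and 12.46 and 12.33 in wild-type cells. In all, 11 probe sets named such a gene beside another and were left out. Just inside the floor lay Cox6a2, Ndufaf5 and Ndufaf6, whose highest values were 7.36, 7.73 and 7.75, and just outside lay Cox7a1, Cox4i2 and Ndufa4l2 at 6.70, 6.51 and 6.23. The 96 genes lie on 19 chromosomes, with at most 8 on 1 of them.

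Few genes of the respiratory chain differed between LPS and unstimulated cells by 2-fold. In knockout cells 1 of the 96 genes was called higher and 1 lower, while 6.62% of all 9578 measured genes were called higher and 7.99% lower. In wild-type cells 2 were called higher and 2 lower, while 7.29% of all 9507 measured genes were called higher and 9.69% lower. The median absolute log2 difference of the 96 genes was 0.23 in knockout cells and 0.28 in wild-type cells, beside 0.39 and 0.42 over all measured genes. For 88 of the 96 genes all 4 arrays lay within 1 log2 unit of each other, and the median range over the 4 arrays was 0.40.

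The signed medians were small, and their direction depended on how the arrays were scaled. With the deposited scaling the median log2 difference between LPS and unstimulated cells was 0.08 in knockout cells and 0.16 in wild-type cells, beside -0.05 and -0.03 over all measured genes. After quantile normalization it was -0.01 and 0.03, beside 0.01 and 0.07 over all genes. With arrays scaled on the probe sets for poly-A control RNAs it was -0.46 and -0.38, beside -0.54 and -0.52. Whether such RNAs were added to each sample was not checked. The respiratory chain thus stood 0.13 and 0.19 above the median of all genes as deposited and 0.08 and 0.14 above it on the poly-A scale, but at -0.03 and -0.04 relative to it after quantile normalization. The poly-A scale lowers every LPS difference of a genotype by a constant that exceeds most of the differences given below, so the directions of single genes below are those of the deposited scaling. A bulk signal of this kind cannot tell fewer cells of a type from less RNA per cell.

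**Figure D1:**
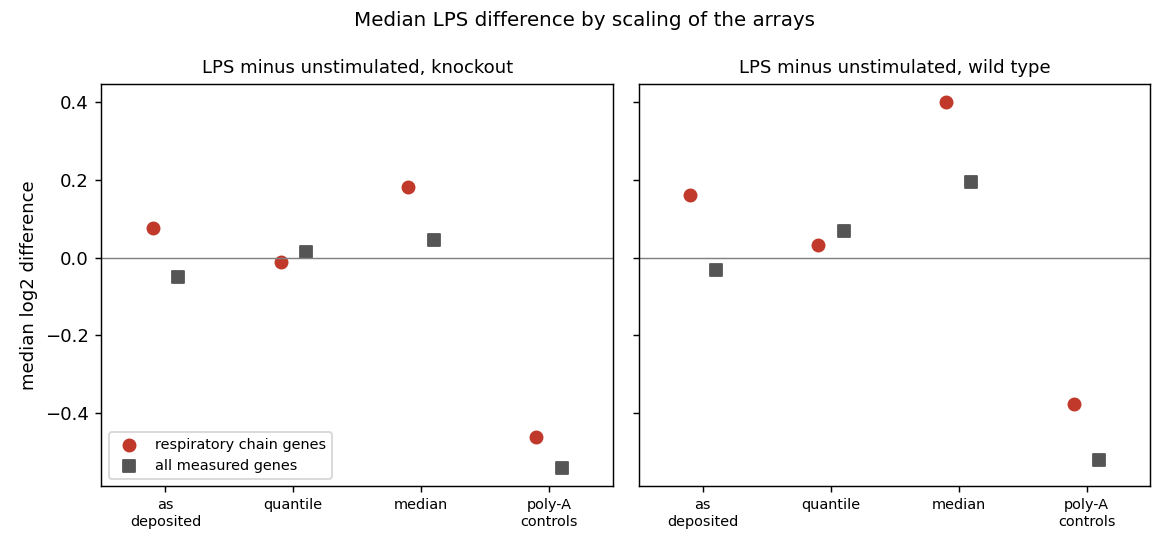
Median log2 difference between LPS and unstimulated cells (vertical axis) in knockout cells (left) and wild-type cells (right) under 4 scalings of the arrays, for the 96 respiratory chain genes (circles) and all measured genes (squares). The medians of the 96 genes are 0.08 and 0.16 with the deposited scaling, near 0 after quantile normalization, and -0.46 and -0.38 when arrays are scaled on the poly-A controls.

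Promoter windows of 4 genes are printed, those of Ndufaf7, Ndufaf4 and Atp5md for their values and that of Uqcr11 for its letters. Ndufaf7 and Ndufaf4 were the assembly factors called after LPS, and Atp5md was the 1 gene whose LPS differences were 2-fold apart between genotypes. Uqcr11, which was not called, held motifs of both NRF1 and GABPA, factors known to act at respiratory chain promoters. Each window runs 5′ to 3′ on the gene's strand over 300 bases, 250 before the start of the gene and 50 from it, taken from RefSeq on build GRCm38.p6. Ndufaf7 is at chr17:78936885-78937184 on the plus strand, Ndufaf4 at chr4:24897833-24898132 on the plus strand, Atp5md at chr19:47090598-47090897 on the minus strand and Uqcr11 at chr10:80406772-80407071 on the minus strand. Capitals mark the motif letters found.
Ndufaf7: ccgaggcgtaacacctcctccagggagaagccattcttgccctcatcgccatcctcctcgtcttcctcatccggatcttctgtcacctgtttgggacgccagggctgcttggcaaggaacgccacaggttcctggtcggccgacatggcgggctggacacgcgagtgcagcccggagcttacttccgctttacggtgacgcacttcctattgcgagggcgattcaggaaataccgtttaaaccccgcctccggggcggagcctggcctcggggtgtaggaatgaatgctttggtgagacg
Ndufaf4: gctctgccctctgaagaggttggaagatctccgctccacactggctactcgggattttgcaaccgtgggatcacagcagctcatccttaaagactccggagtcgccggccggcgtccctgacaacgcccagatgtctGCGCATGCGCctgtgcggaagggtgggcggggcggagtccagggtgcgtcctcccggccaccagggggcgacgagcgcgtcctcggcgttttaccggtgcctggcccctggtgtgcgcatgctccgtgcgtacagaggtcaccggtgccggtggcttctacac
Atp5md: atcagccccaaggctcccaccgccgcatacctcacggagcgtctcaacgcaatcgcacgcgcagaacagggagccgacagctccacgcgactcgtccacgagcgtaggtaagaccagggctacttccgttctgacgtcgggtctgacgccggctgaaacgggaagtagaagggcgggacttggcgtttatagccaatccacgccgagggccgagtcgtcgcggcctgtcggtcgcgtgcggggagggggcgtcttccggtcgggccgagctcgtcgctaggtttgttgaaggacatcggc
Uqcr11: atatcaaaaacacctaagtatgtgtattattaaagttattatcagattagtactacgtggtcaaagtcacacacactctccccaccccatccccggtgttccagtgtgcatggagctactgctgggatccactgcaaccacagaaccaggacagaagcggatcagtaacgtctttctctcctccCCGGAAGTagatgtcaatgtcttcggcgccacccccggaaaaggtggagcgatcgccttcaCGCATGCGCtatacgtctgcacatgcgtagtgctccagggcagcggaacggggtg

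A promoter window was found for 80 of the 96 genes, and 4 motifs were searched on both strands. The letters GCGCATGCG of NRF1 occurred in 9 of the 80 genes (11.2%), beside 4.59% of 8090 measured genes and 1.95% of all 27025 genes with a window. These 9 were Atp5g2, Atp5k, Atp5l, Cox6a1, Ndufa8, Ndufaf4, Ndufaf5, Uqcr11 and Uqcrc1, and since the letters are nearly the same on both strands, 1 site can be read on each. The letters CCGGAAGT of the ETS factor GABPA occurred in 8 genes (10.0%, beside 10.0% of measured genes and 4.31% of all), and those of YY1, AAGATGGCG, also in 8 genes (10.0%, beside 3.99% and 1.64%). The YY1 letters contain ATGGCG, which can also be a start codon. The letters TCAAGGTCA of ERR alpha occurred in Atp5g3 and Sdhd (2.50%, beside 0.35% of measured genes and 0.47% of all). The median GC content of the windows was 59.2%, beside 60.7% for measured genes and 52.7% for all. Such matches describe letters in a window and were not tested as sites.

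The subunits and the assembly factors spread differently after LPS. Among subunits the median absolute difference was 0.19 in knockout cells and 0.26 in wild-type cells, and among assembly factors it was 0.43 and 0.46. At a lower threshold of 1.5-fold, 4 of 75 subunits (5.33%) and 8 of 21 assembly factors (38.1%) were called in either direction in knockout cells, and 9 of 75 (12%) and 7 of 21 (33.3%) in wild-type cells. Over all measured genes 33.0% were called at 1.5-fold in knockout cells (13.8% higher and 19.2% lower) and 36.8% in wild-type cells (15.8% higher and 21% lower), so the share of assembly factors was near that of all genes. Brightness moved with this split: 67 of the 75 subunits but 3 of the 21 assembly factors had a mean log2 signal of 11 or more. Among such bright genes 12.6% of 2398 were called at 2-fold in knockout cells and 14.9% in wild-type cells, against 0 and 1 of the 67 subunits. Among dimmer genes 15.3% and 17.7% were called, against 1 and 2 of the 18 assembly factors. The part of brightness in the split between subunits and assembly factors was not tested.

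**Figure D2:**
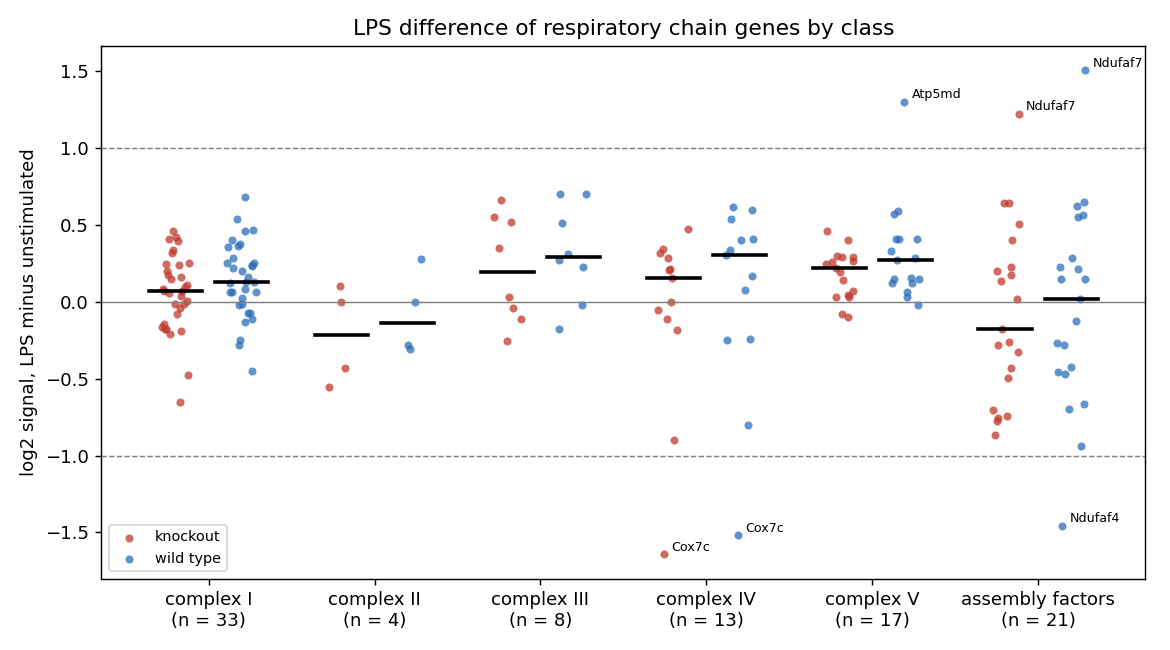
Log2 difference between LPS and unstimulated cells (vertical axis) for each of the 96 genes by class, with knockout cells in red and wild-type cells in blue, black bars for medians and dashed lines at 2-fold, all with the deposited scaling. In knockout cells complex V lies between -0.10 and 0.46 and the assembly factors between -0.87 and 1.23; on the poly-A scale every class median is below 0.

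Complex I, the NADH dehydrogenase, had no gene called at 2-fold among its 33. Its differences lay between -0.65 and 0.46 in knockout cells and between -0.45 and 0.68 in wild-type cells, with medians of 0.07 and 0.13 that were -0.46 and -0.41 on the poly-A scale. At the upper end stood the accessory subunit Ndufa7, with 12.67 and 12.26 in knockout cells with LPS and unstimulated and 12.92 and 12.24 in wild-type cells. The accessory subunit Ndufb1 gave 10.13 and 9.68 in knockout cells and 10.22 and 9.68 in wild-type cells. For both genes each LPS array was above the unstimulated arrays. At the lower end stood Ndufa8, an accessory subunit on the intermembrane side, with 11.64 and 12.29 in knockout cells and 11.76 and 12.21 in wild-type cells. The core subunit Ndufs3 gave 10.82 and 11.30 in knockout cells and 10.94 and 11.22 in wild-type cells. In these 2 genes both LPS arrays were below both unstimulated arrays, with differences of -0.65 for Ndufa8 and -0.48 for Ndufs3 in knockout cells and of -0.45 and -0.28 in wild-type cells. All these values are from the brightest probe set of each gene, and some dimmer ones passed 2-fold. One of Ndufa12 differed by 1.28 in knockout and 0.43 in wild-type cells, where its brightest gave 0.10 and -0.02. One of Ndufs4 differed by -0.64 and by at least -1.29, where its brightest gave -0.01 and 0.22.

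Complex II, succinate dehydrogenase, is the only complex that also belongs to the tricarboxylic acid cycle, and 0 of its 4 genes were called. The flavoprotein Sdha, which oxidises succinate, gave 11.30 and 11.86 in knockout cells with LPS and unstimulated and 11.39 and 11.67 in wild-type cells. The iron-sulfur subunit Sdhb gave 12.83 and 12.73 in knockout cells and 12.84 and 12.56 in wild-type cells. Sdha was thus lower on both LPS arrays and Sdhb higher, although a further probe set of Sdha differed by -0.05 in knockout cells and 0.26 in wild-type cells. Of the membrane anchors, Sdhc gave 10.43 on both knockout arrays and 10.46 on both wild-type arrays. Sdhd gave 11.01 and 11.44 in knockout cells and 11.34 and 11.65 in wild-type cells. The medians of the complex were -0.22 in knockout cells and -0.14 in wild-type cells, and they were -0.75 and -0.68 on the poly-A scale, while the wild-type value was 0.10 after scaling arrays to a common median.

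Complex III, the cytochrome c reductase, had 0 of 8 genes called at 2-fold and medians of 0.19 in knockout cells and 0.29 in wild-type cells, which were -0.34 and -0.25 on the poly-A scale. Its small subunit Uqcrq gave 13.12 and 12.46 in knockout cells with LPS and unstimulated and 13.06 and 12.36 in wild-type cells. Uqcr10, another small subunit, gave 11.68 and 11.16 in knockout cells and 11.81 and 11.11 in wild-type cells. Both were higher on each LPS array, by 0.66 and 0.52 in knockout cells and by 0.70 each in wild-type cells. Uqcrb, which binds near the ubiquinone site, gave 14.41 and 14.52 in knockout cells and 14.28 and 14.46 in wild-type cells. Uqcr11, whose window is printed above, gave 11.36 and 11.62 in knockout cells and 11.51 and 11.53 in wild-type cells. These 2 lay slightly below their unstimulated arrays. The core proteins Uqcrc1 and Uqcrc2 and the Rieske protein Uqcrfs1 differed by 0.35, -0.04 and 0.03 in knockout cells. In wild-type cells they differed by 0.31, 0.27 and 0.22.

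Complex IV, cytochrome c oxidase, had 1 of 13 genes called in each genotype, Cox7c, with medians of 0.15 in knockout cells and 0.30 in wild-type cells that were -0.46 and -0.23 on the poly-A scale. Cox7c gave 6.82 and 8.46 in knockout cells with LPS and unstimulated and 6.13 and 8.32 in wild-type cells. It was 3.12-fold lower with LPS in knockout cells and at least 2.87-fold lower in wild-type cells, where the LPS array was below the floor. This value comes from a probe set whose name marks it as shared between transcripts. The other probe set of Cox7c was below the floor on all arrays, so its floored differences are 0. The mean over both, -0.82 and -0.76, therefore had to lose the calls and is no check on the value. Whether this dim probe set of Cox7c reports its main transcript was not tested. Cox4i1 and Cox5b, which were much brighter, differed less. Cox4i1 gave 14.32 and 13.85 in knockout cells and 14.43 and 13.82 in wild-type cells, and Cox5b gave 14.40 and 14.12 in knockout cells and 14.50 and 14.09 in wild-type cells, differences of 0.29 and 0.41. A dim further probe set of Cox5b, without the mark of cross-hybridisation, went the other way, by at least -1.16 and -0.88 with the LPS arrays below the floor. Cox6b2, an isoform known from testis, gave 7.87 and 8.76 in knockout cells and 8.34 and 9.13 in wild-type cells. Ndufa4, first assigned to complex I and since then to complex IV, gave 12.73 and 12.91 in knockout cells and 12.57 and 12.81 in wild-type cells, differences of -0.18 and -0.24. Cox6a2, a muscle isoform next to the floor, gave 7.01 and 6.29 in knockout cells and 7.36 and 6.82 in wild-type cells.

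Complex V had the most uniform sign with the deposited scaling. Above 0 were 15 of 17 genes in knockout cells and 16 of 17 in wild-type cells, beside 46.4% and 47.8% of all measured genes. Bright genes, with a mean log2 signal of 11 or more, leaned the same way, with 54.9% and 58.8% of 2398 above 0. The part of brightness in the sign of complex V was not tested. The medians of complex V were 0.22 and 0.27, and they were -0.31 and -0.27 on the poly-A scale. The 1 gene called was Atp5md, a small protein of the membrane sector, in wild-type cells. Atp5md gave 12.04 and 11.82 in knockout cells with LPS and unstimulated and 12.33 and 11.03 in wild-type cells. The unstimulated wild-type array was the low one, and the 3 others lay between 11.82 and 12.33. It was 2.46-fold higher with LPS in wild-type cells, and 0.76 higher in log2 signal on the poly-A scale. Atp5l, subunit g, gave 13.53 and 13.13 in knockout cells and 13.69 and 13.10 in wild-type cells. The catalytic-sector subunit Atp5a1 gave 12.55 and 12.65 in knockout cells and 12.74 and 12.62 in wild-type cells. Atp5j, coupling factor 6, gave 13.18 and 13.13 in knockout cells and 13.12 and 13.13 in wild-type cells. These 2 had the smallest mean LPS differences of the complex.

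The assembly factors ran in both directions, with 10 of 21 above 0 in knockout cells and 11 of 21 in wild-type cells. Ndufaf7, a methyltransferase that modifies a core subunit of complex I early in its assembly, gave 10.61 and 9.38 in knockout cells with LPS and unstimulated and 11.05 and 9.55 in wild-type cells. Both LPS arrays were above both unstimulated arrays. It was 2.34-fold higher with LPS in knockout cells and 2.84-fold higher in wild-type cells, the highest difference among the 96 genes in each genotype as deposited, but 0.69 and 0.97 in log2 signal, short of a call, on the poly-A scale. Its only probe set is marked as shared between transcripts. Ndufaf4, a further complex I assembly factor, gave 9.32 and 10.19 in knockout cells and 8.74 and 10.20 in wild-type cells. It was 1.82-fold lower with LPS in knockout cells and 2.74-fold lower in wild-type cells, and its other probe set differed by -1.45 in knockout cells and by at least -1.03 in wild-type cells.

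Other assembly factors shared a direction in both genotypes without a call at 2-fold. Cox7a2l, which joins complexes III and IV in supercomplexes, gave 12.39 and 11.75 in knockout cells with LPS and unstimulated and 12.59 and 11.93 in wild-type cells. Cox19, which takes part in copper delivery to complex IV, differed by 0.64 and 0.62, and Sdhaf2, which helps to attach the flavin to Sdha, by 0.51 and 0.55. These 3 were higher on the LPS arrays. Cox11, which inserts copper into complex IV, gave 8.92 and 9.70 in knockout cells and 8.97 and 9.44 in wild-type cells. Cox10, which makes a precursor of heme A, differed by -0.33 and -0.69, and Cox20, a chaperone of a mitochondrially encoded subunit, by -0.49 and -0.42. Next to the floor, Ndufaf6, a complex I assembly factor, gave 7.01 and 7.75 in knockout cells and 6.59 and 7.73 in wild-type cells. Sdhaf3, which helps to mature Sdhb, gave 7.11 and 7.87 in knockout cells and 6.37 and 7.46 in wild-type cells. With LPS they were 1.67-fold and 1.69-fold lower in knockout cells and at least 1.91-fold and 1.59-fold lower in wild-type cells.

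**Figure D3:**
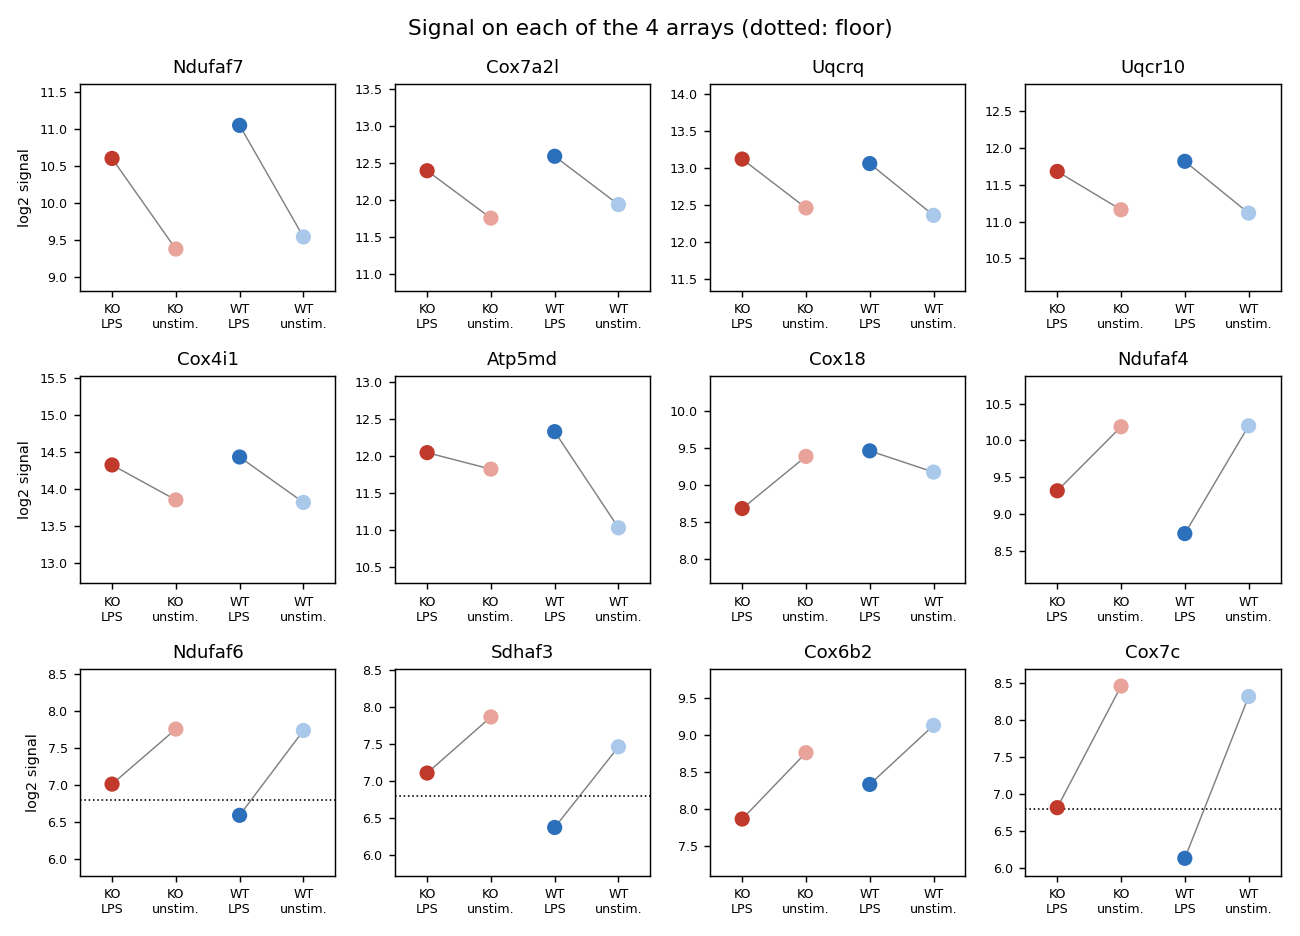
Log2 signal (vertical axes, all of the same span) of 12 genes on the 4 arrays, from left to right knockout with LPS, knockout unstimulated, wild type with LPS and wild type unstimulated, with a grey line joining the 2 arrays of a genotype and a dotted line at the floor of 6.80. Ndufaf7 is higher on both LPS arrays, Ndufaf4 and Cox7c are lower on both, and Atp5md stands apart on the unstimulated wild-type array at 11.03.

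The knockout and wild-type responses to LPS, which share no array, ran alike over the respiratory chain to about the degree seen for all genes. Across the 96 genes Pearson's r between the 2 sets of log2 differences was 0.86 and Spearman's rho 0.81, and 79 genes (82.3%) had the same sign, beside 0.89, 0.83 and 82.6% over 9220 measured genes. These are correlations across genes, which are not independent replicates, and the points of a genotype share their 2 arrays.

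**Figure D4:**
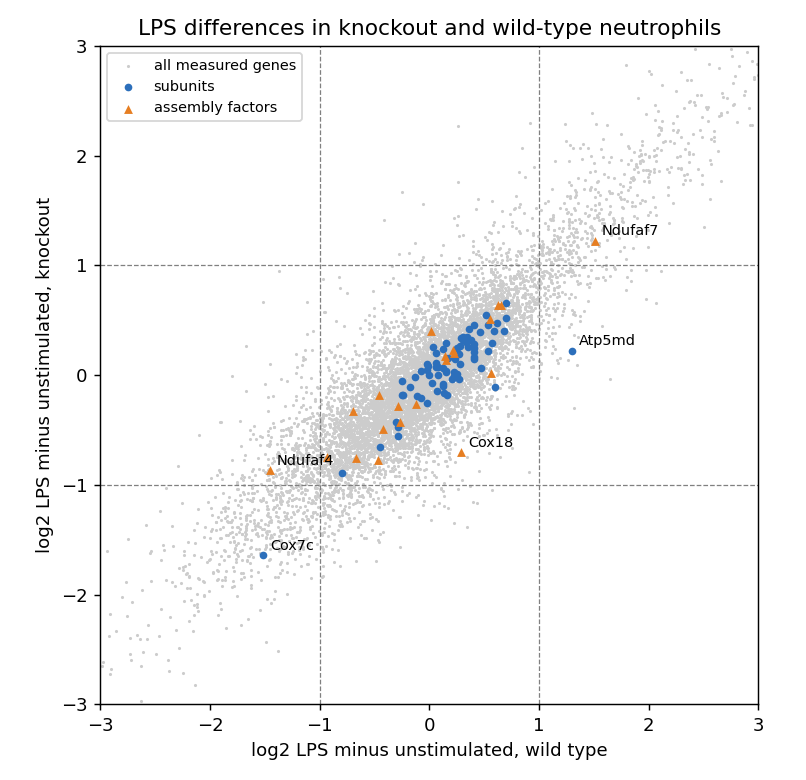
Log2 difference between LPS and unstimulated cells in wild-type cells (horizontal axis) and knockout cells (vertical axis), with all measured genes in grey, subunits as blue circles and assembly factors as orange triangles, dashed lines at 2-fold, and 89 genes beyond the axes at 3. Most of the 96 genes lie inside the dashed square, with Ndufaf7 at the upper right, Cox7c and Ndufaf4 at the lower left, and Atp5md and Cox18 off the diagonal.

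Knockout and wild-type cells differed little in these genes at either time. In unstimulated cells 0 of the 96 genes were called higher or lower in knockout than in wild-type cells, beside 0.351% and 0.66% of 9401 measured genes, and the differences lay between -0.37 and 0.84 with a median of 0.03. After LPS 0 were called in either direction, beside 0.615% and 0.626% of 9262 measured genes, and the differences lay between -0.78 and 0.63 with a median of -0.03. Counts of 0 among 96 genes are near these background shares. Markers of eosinophils, basophils and mast cells were lower in knockout cells at both times (Prg2 at -1.10 unstimulated and -1.23 after LPS, Mcpt8 at -1.61 and -1.48). In unstimulated knockout cells 7 of 7 erythroid markers were above wild-type cells, with a median of 0.57 and 1 called (Car1 at 1.05), and 12 of 12 neutrophil markers were above them, with a median of 0.16 and 0 called. After LPS 2 of 3 erythroid and 7 of 12 neutrophil markers were above wild-type cells, with 0 called. The part of these markers in the genotype differences was not tested. At 1.5-fold, 2 genes were higher and 0 lower in unstimulated knockout cells, Atp5md and Cox8c (2.83% and 3% of all genes), and 1 was higher and 1 lower after LPS, Ndufaf5 and Cox18 (4.42% and 3.23%). The median absolute difference was 0.08 in unstimulated cells and 0.12 after LPS, beside 0.16 and 0.19 over all genes.

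By their brightest probe sets, the genes that stood out by genotype did so on 1 array or near the floor. Atp5md was 1.73-fold higher in knockout than in wild-type cells without LPS and 1.22-fold lower after it. Cox8c, an isoform known from testis, gave 8.20 and 8.31 in knockout cells with LPS and unstimulated and 8.08 and 7.48 in wild-type cells. Its other probe set, below the floor in unstimulated knockout cells, differed there in the other direction, by at least -0.45. Cox18, which inserts part of a mitochondrially encoded complex IV subunit into the inner membrane, gave 8.68 and 9.39 in knockout cells and 9.46 and 9.17 in wild-type cells. The knockout array with LPS was the low one, 1.72-fold below the wild-type array with LPS. Ndufaf5, a complex I assembly factor near the floor, gave 7.55 and 7.73 in knockout cells and 6.92 and 7.38 in wild-type cells. Some further probe sets passed 2-fold between genotypes where the brightest did not. One of Ndufv2, marked for cross-hybridisation, was at -1.02 after LPS (11.60 in knockout and 12.62 in wild-type cells), where the brightest gave -0.16. A dim one of Atp5j2 was higher in knockout cells by at least 1.22 unstimulated and 1.06 after LPS, with both wild-type arrays below the floor. The brightest of Atp5j2 gave 0.31 and 0.18. Each of these values rests on 1 pool.

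**Figure D5:**
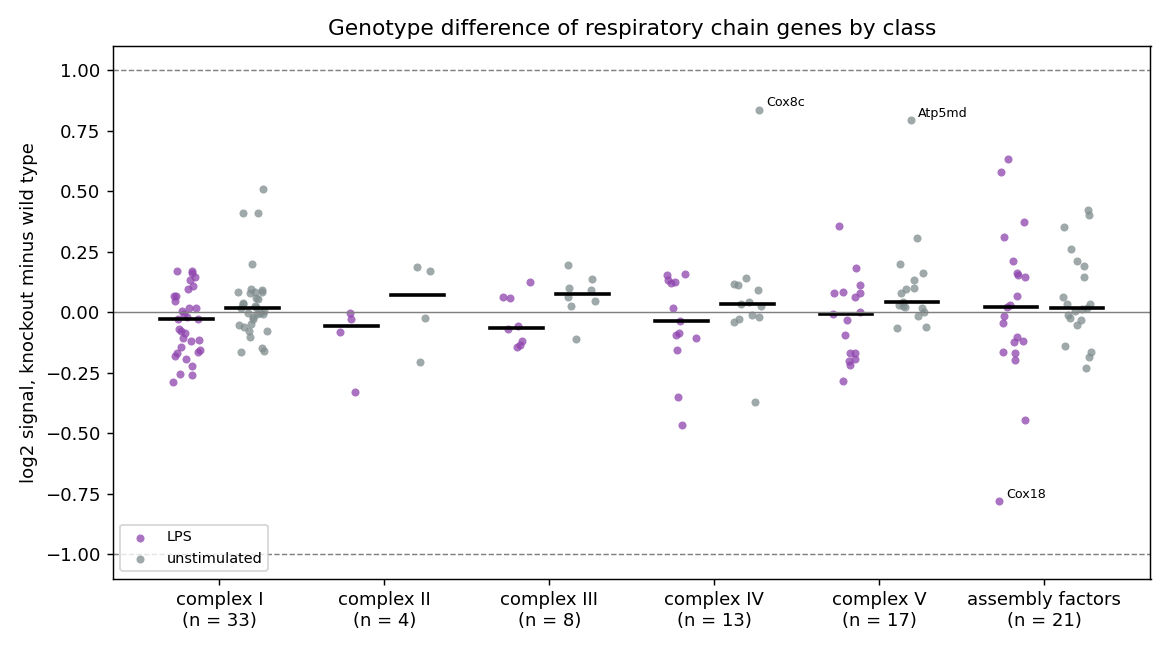
Log2 difference between knockout and wild-type cells (vertical axis) for each of the 96 genes by class, after LPS in purple and unstimulated in grey, with black bars for medians and dashed lines at 2-fold. No gene reaches a dashed line, the widest values being 0.84 for Cox8c and 0.79 for Atp5md in unstimulated cells and -0.78 for Cox18 after LPS.

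The LPS difference was set against the other genotype by subtracting the wild-type response from the knockout response. Of the 96 genes 0 were called higher and 1, Atp5md, lower at -1.08, beside 1.27% and 0.9% of 9220 measured genes, and the median was -0.08, beside -0.01 over all genes. The knockout response was the lower one in 65 of 96 genes, beside 4789 of 9220 measured genes. With arrays scaled to a common median the value of the 96 genes was -0.21, beside -0.15 over all genes, and after quantile normalization it was -0.04, beside -0.03. Cox18, whose response was -0.71 in knockout cells and 0.29 in wild-type cells, stood at -0.99, just short of 2-fold. At 1.5-fold, Ndufaf4 was higher at 0.59 and Atp5md, Cox18 and Cox8c were lower (6.56% and 5.33% of all genes).

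Genes of the same pathway outside the name rule were read from lists. Their counts stand beside all measured genes, of which 6.62% were called higher and 7.99% lower with LPS in knockout cells. In wild-type cells these shares were 7.29% and 9.69%. Of 24 further assembly factors measured, 0 were higher and 2 lower with LPS in each genotype. Nubpl, which delivers iron-sulfur clusters to complex I, was the 1 called in both, at -1.49 in knockout cells and -1.15 in wild-type cells. Cytochrome c itself, Cycs, differed by 0.00 and 0.18, and Cyc1 of complex III by -0.29 and 0.02. Of 20 genes of the tricarboxylic acid cycle and pyruvate dehydrogenase, 0 were higher and 2 lower in knockout cells. In wild-type cells 0 were higher and 1 lower. In each genotype 15 of 20 were below 0, with medians of -0.28 and -0.29. Over all measured genes 5136 of 9578 were below 0 in knockout cells and 4964 of 9507 in wild-type cells. Pdk1, a kinase that switches off pyruvate dehydrogenase, was called in both, at -1.12 and -1.52. A dimmer probe set of Pdk1 gave at least -0.63 and -0.59, with the LPS arrays below the floor. Of 16 genes of ubiquinone synthesis and electron transfer flavoproteins, Pdss2, which makes the ubiquinone side chain, was called lower in both, by at least 2.96-fold in knockout cells and by 3.08-fold in wild-type cells. Coq4, a ubiquinone synthesis protein, gave 9.50 and 9.0 in knockout cells with LPS and unstimulated and 10.81 and 9.78 in wild-type cells, and after LPS it was 2.48-fold lower in knockout cells.

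Among regulators of mitochondrial biogenesis 2 of 15 were higher and 0 lower with LPS in knockout cells. In wild-type cells 2 of 16 were higher and 3 lower. In either direction this was 13.3% in knockout and 31.25% in wild-type cells, beside 14.6% and 17.0% of all measured genes. Esrra, the nuclear receptor ERR alpha, gave 10.81 and 9.05 in knockout cells with LPS and unstimulated and 11.09 and 9.27 in wild-type cells. Its differences of 1.76 and 1.82 were called, while a dimmer probe set of Esrra gave 0.54 and 0.15. Tfb1m, which methylates mitochondrial ribosomal RNA, gave 9.67 and 7.54 in knockout cells and 10.16 and 8.91 in wild-type cells. It was called higher with LPS in both, at 2.13 and 1.25, and 2.59-fold lower in unstimulated knockout than wild-type cells, a genotype difference that its other probe set, below the floor without LPS, did not give. Nrf1 and Tfam differed by 0.01 and -0.27 in knockout cells and 0.30 and -0.02 in wild-type cells, and Ppargc1a was below the floor throughout. The dimmer probe sets of Nrf1 disagreed, at 0.04, 0.20 and -0.52 in knockout cells and 0.74, 0.16 and -1.10 in wild-type cells. Sqstm1, an autophagy receptor on the list of mitochondrial removal, was higher at 2.47 and 2.77. Its dimmer probe set gave at least 0.97 and 0.52, with the unstimulated arrays below the floor.

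Cell markers moved beside these values. The summed signal of 12 neutrophil markers was 385335 and 354121 in knockout cells with LPS and unstimulated and 341085 and 322372 in wild-type cells, and 1 of them, Cxcr2, was called lower with LPS in knockout cells at -1.11. That of 9 erythroid markers, a lineage whose precursors are rich in mitochondria, was 3426 and 7586 in knockout cells and 2840 and 5284 in wild-type cells, with 5 of 7 measured called lower with LPS in knockout cells (Car1, Car2, Ermap, Klf1 and Slc4a1) and 2 of 6 in wild-type cells (Car1 and Ermap), and with Alas2 and Hba-a1 below the floor on all arrays. The sum of 8 markers of proliferating precursors was 53210 and 61330 in knockout cells and 54008 and 60200 in wild-type cells, and 1 of 8, Mki67, was called lower in wild-type cells at -1.15 and stood at -0.95 in knockout cells. The sum of 11 monocyte and macrophage markers was 58086 and 41699 in knockout cells and 58448 and 40545 in wild-type cells, with 4 higher and 4 lower in each genotype. Erythroid and proliferation markers were thus lower and monocyte markers higher in sum with LPS in both genotypes. Of the measured erythroid markers 0 were above 0, but 3 of 8 proliferation markers were above 0 in each genotype. Of 11 monocyte markers 6 were below 0 in knockout cells and 7 in wild-type cells, against the direction of their sum. The part of these markers in the differences of the respiratory chain was not tested.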

How the data were processed

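RNA of 4 groups was measured on 1 Affymetrix array each, and RNA of 3 experiments was pooled per array, per the series' design text. The authors deposited a log2 signal for each probe set and array. The submitters' processing notes name MAS5, without a version. Unlogged values had a 2% trimmed mean of 500.003 or 500.004 on every array, so the arrays had been scaled to one target.

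Of 45101 probe sets, 34958 carried 1 gene symbol in the platform annotation, 932 carried several and 9211 were not listed; only those with 1 symbol were used. For genes with several probe sets the brightest over the 4 arrays was taken. Values under the 60th percentile of all were raised to it, so that differences reaching this floor are bounds. No test was possible with 1 array per group: genes past 2-fold were counted beside all measured genes. Of 44 respiratory chain genes with at least 2 probe sets above the floor on all arrays, the LPS differences of the probe sets lay within 0.5 of each other for 39 in knockout cells and 41 in wild-type cells. The number of arrays limits the precision.

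Any respiratory chain gene could be named. Values of all arrays are given for called genes and for the 2 highest and 2 lowest of each class by the mean of the 2 LPS differences, for Cox6a2, Ndufaf6 and Sdhaf3 next to the floor, and for Cox8c, Cox18 and Ndufaf5, added after their values were seen. From the other lists (176 of 197 symbols matched), genes called in the same direction in both LPS comparisons or between genotypes are named, with a few regulators, Cycs and Cyc1 added after their values were seen. The genes and lists were chosen with earlier results of these data known. Alternatives were 3 other scalings, other floors and no floor, the mean over probe sets, leaving out probe sets whose names mark shared transcripts or cross-hybridisation, a 1.5-fold threshold and subunits alone. Computation used Python 3.11.15, numpy 2.4.6 and pandas 2.3.3, with the counting tested on simulated data. Promoter windows came from RefSeq tables of build GRCm38.p6.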

Additional observations from a re-analysis of the deposited data

How the results depend on the processing

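No paired analysis was possible because each group had 1 array. Of 50 medians of the 96 genes under alternatives, 4 had the other sign: after LPS in both genotypes and between genotypes after LPS (0.0033) on the poly-A scale, and after LPS in knockout cells with quantile normalization (-0.012). On the poly-A scale the LPS medians of the 96 genes were -0.46 in knockout cells and -0.38 in wild-type cells, with 0 called higher and 11 lower in knockout cells and 0 and 6 in wild-type cells, beside 22.8% and 23.8% of all genes lower and 3.46% and 3.65% higher on that scale; class medians there were -0.41 for complex I in wild-type cells, -0.75 and -0.68 for complex II, -0.34 and -0.25 for complex III, -0.46 and -0.23 for complex IV and -0.31 and -0.27 for complex V (knockout, then wild type). That scaling shifted the median of all genes by -0.49 in both genotypes. Median scaling shifted it by 0.10 and 0.23 and gave 0.18 and 0.40 for the 96 genes, and -0.18 between genotypes after LPS. For the difference of responses median scaling gave -0.21 and 2 genes lower, beside 1.49% of all genes. For complex II in wild-type cells it gave 0.10. Quantile normalization gave 0.032 for the 96 genes in wild-type cells, and 0.025 for assembly factors and -0.028 for complex IV in knockout cells. It also gave 2 genes lower for the difference of responses, beside 1.18% of all genes. At 1.5-fold, 4 genes were higher and 8 lower with LPS in knockout cells, 10 and 6 in wild-type cells, 2 higher between genotypes unstimulated, 1 and 1 after LPS, and 1 and 3 for the difference of responses. With a floor at the 50th percentile 4 were lower in wild-type cells, beside 10% of all genes. At the 75th, 0 were lower with LPS in knockout cells and 1 in wild-type cells, beside 5.92% and 7.56% of all genes. Assembly factors then stood at 0.14 in knockout cells. Without a floor, 2 were higher and 2 lower with LPS in knockout cells, 4 and 5 in wild-type cells, 3 higher between genotypes unstimulated, 2 higher after LPS, and 2 and 3 for the difference of responses. The genes added were Cox7a1, Cox7b2, Cox8b and Ndufa4l2, which are below the floor on all arrays, some far below it, and Ndufaf6 and Sdhaf3, which cross it. Without a floor 15.2% of all genes were higher and 16.7% lower with LPS in knockout cells, and 15% and 18.1% in wild-type cells. Between genotypes 11.8% of all genes were then higher unstimulated and 13.5% after LPS. For the difference of responses 16.4% were higher and 15.3% lower. The mean over probe sets left 1 lower in wild-type cells, beside 6.64% of all genes. Subunits alone gave 0 higher in knockout cells, and 1 higher and 1 lower in wild-type cells. Leaving out shared or cross-hybridising probe sets gave 2 lower in knockout cells, beside 8.71% of all genes. In wild-type cells it gave 1 higher and 1 lower, beside 7.13% and 11%. For the difference of responses it gave 2 lower, beside 0.947%. Cox7c and Ndufaf7 lost their calls in both genotypes under this setting, so no knockout call with LPS was kept. The knockout calls were instead Cox5b and Ndufaf8, lower, and Ndufa12, higher, beside 6.48% of all genes higher. The medians of complexes III and IV in knockout cells were then -0.11 and -0.027. Atp5md was called for the difference of responses under each alternative run, but only the 3 other scalings could change its value. It is a subunit with 1 probe set, which is unmarked and far above the floor, so the remaining alternatives had to keep the call. Apart from dropped genes and genes at the floor, the cause was not tested.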
